A study of Mus musculus with 6 samples.

Results

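Connexins and pannexins are the proteins of gap junctions and of the large membrane channels related to them. Probes for 6 of their genes, Gja1, Gja4, Gjb2, Gjb5, Gjc1 and Panx1, were read on each array of a study of TM4 cells, a mouse testicular somatic line used as a Sertoli cell model. Probes were matched to the members by gene symbol, through the transcript accession of each probe. The members themselves were chosen with earlier results of these data known. They were covered by 8 of the 56605 non-control probes: 3 for Gja1 and 1 for each of the others. Including the members, 19 genes of both families are described here, of 23462 genes with a symbol on the array. One group was kept for 24 h without added compound (0 µM) and the other for 24 h with 10 µM 4-nitrophenol (PNP), a nitrated phenol found in diesel exhaust. Each group held 3 samples of total RNA, and each RNA was hybridised to 1 single-colour Agilent array. The labels give no separate cultures for the replicates, so the p-values reflect only how far these 6 samples scatter, possibly for technical reasons, and a single line stands for the testis here.

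Connexin proteins assemble as rings of subunits in the plasma membrane, and rings of neighbouring cells dock into gap junction channels that pass ions, second messengers and small metabolites. Gja1 encodes the connexin best known in the seminiferous epithelium, where it joins Sertoli cells to each other and to germ cells. Pannexins resemble them in topology but mostly act as single-membrane channels that let ATP out of the cell, where purinergic receptors sense it. In bulk RNA, fewer cells expressing a gene and less RNA per cell cannot be told apart.

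The sequences just before the annotated start of 4 members are shown as a description. Of these, Gja1, Gjb5 and Panx1 were detected on all arrays and Gjb2 lay near background. Whether the sequences bear on the signals was not tested. Each line gives the 250 bases before the start on the gene's own strand, from RefSeq on GRCm38.p6, which had such a window for 5 of the 6 members. The windows lie at chr10:56377050-56377299 on the plus strand for Gja1, and on the minus strand at chr4:127358165-127358414 for Gjb5, chr9:15045479-15045728 for Panx1 and chr14:57104703-57104952 for Gjb2. Capitals mark matches to 5 short motifs searched on both strands: TGANTCA (AP-1), TGACGTCA (the cyclic AMP response element), GGGCGG (GC box), CCAAT and TATAAA.
Gja1: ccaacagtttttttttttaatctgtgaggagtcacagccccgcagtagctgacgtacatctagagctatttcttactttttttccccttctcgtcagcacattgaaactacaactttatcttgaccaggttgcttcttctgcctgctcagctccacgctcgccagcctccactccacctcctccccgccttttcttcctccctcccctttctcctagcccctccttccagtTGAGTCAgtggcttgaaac
Gjb5: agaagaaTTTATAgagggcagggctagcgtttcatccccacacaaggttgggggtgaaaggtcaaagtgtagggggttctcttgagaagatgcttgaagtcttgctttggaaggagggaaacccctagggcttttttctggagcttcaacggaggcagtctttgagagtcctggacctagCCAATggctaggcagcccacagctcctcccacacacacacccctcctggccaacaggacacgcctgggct
Panx1: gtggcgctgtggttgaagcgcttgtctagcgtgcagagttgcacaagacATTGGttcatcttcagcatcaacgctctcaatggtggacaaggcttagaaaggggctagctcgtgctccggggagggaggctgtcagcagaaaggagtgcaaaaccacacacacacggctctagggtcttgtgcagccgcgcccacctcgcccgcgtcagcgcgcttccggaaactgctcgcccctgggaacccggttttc
Gjb2: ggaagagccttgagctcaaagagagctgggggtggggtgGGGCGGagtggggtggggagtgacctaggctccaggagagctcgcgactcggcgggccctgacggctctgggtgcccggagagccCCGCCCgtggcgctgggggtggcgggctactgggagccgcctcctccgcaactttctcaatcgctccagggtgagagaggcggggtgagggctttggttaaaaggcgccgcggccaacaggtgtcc

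The Gja1 window held the AP-1 letters at 19 to 13 bases before the start, a motif that matches on both strands alike. These letters were found in 6.75% of the 32851 windows of that length. In Gjb5, CCAAT lay at 70 to 66 bases and TATAAA, on the opposite strand, at 243 to 238 bases. In Panx1, CCAAT lay on the opposite strand at 201 to 197 bases. CCAAT was found in 33.8% of all windows and TATAAA in 12.4%. Gjb2 held the GC box letters at 211 to 206 bases and, on the opposite strand, at 126 to 121 bases, and Gja4 held them at 79 to 74 bases. Those letters were in 32.7% of windows, and the cyclic AMP response element, in 1.55% of all windows, was in none of the 5. GC content was 50% in Gja1, 54.4% in Gjb5, 59.6% in Panx1, 61.2% in Gja4 and 69.2% in Gjb2, against a median of 52.4%. A match is a description of letters and not of a bound site.

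The 6 arrays sat on 3 slides and at 2 positions on the slide, as the names of the scanner outputs give them: position 1 held untreated 1, untreated 3 and PNP 2, and position 2 held untreated 2, PNP 1 and PNP 3. Each group was therefore split unevenly between the positions, and a difference between positions enters the difference between groups. Slide 1 held untreated 1 and untreated 2, slide 2 held untreated 3 and PNP 1, and slide 3 held PNP 2 and PNP 3. A difference between slides thus enters the group difference too, and a block for position does not remove it. Only slide 2 held both groups, and there group and position cannot be told apart. Each slide held both positions, and the position fits did not use slide. On an array, 48% to 57.9% of probes were well above background and 0 spots were saturated. Of 15 Sertoli cell markers, 12 were well above background on all 6 arrays, Sox9, Wt1 and Gata4 among them, while Amh, Fshr and Cldn11 were detected on no array. None of the 6 Leydig cell markers with a probe was above background on any array. Values below are log2 of the processed signal minus the array's 75th percentile, so 0 is the level that 75% of probes do not exceed. Levels of different probes were not ranked against each other, since probes differ in brightness.

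Signal was found for a limited part of these genes. A gene counted as detected where a probe was well above the local background by the scanner software's own flag. Of the 19 family genes described, 6 were detected on all 6 arrays: Gja1, Gja3, Gjb5, Gjc1, Gjd4 and Panx1. A further 5 were detected on 1 to 5 arrays, and 8 on none: Gja5, Gja6, Gja10, Gjb6, Gjc3, Gjd2, Gje1 and Panx3. Among the 6 members, Gja1, Gjb5, Gjc1 and Panx1 were in the first class. Gja4 was detected on untreated 1 alone and Gjb2 on untreated 3 alone.

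**Figure D1:**
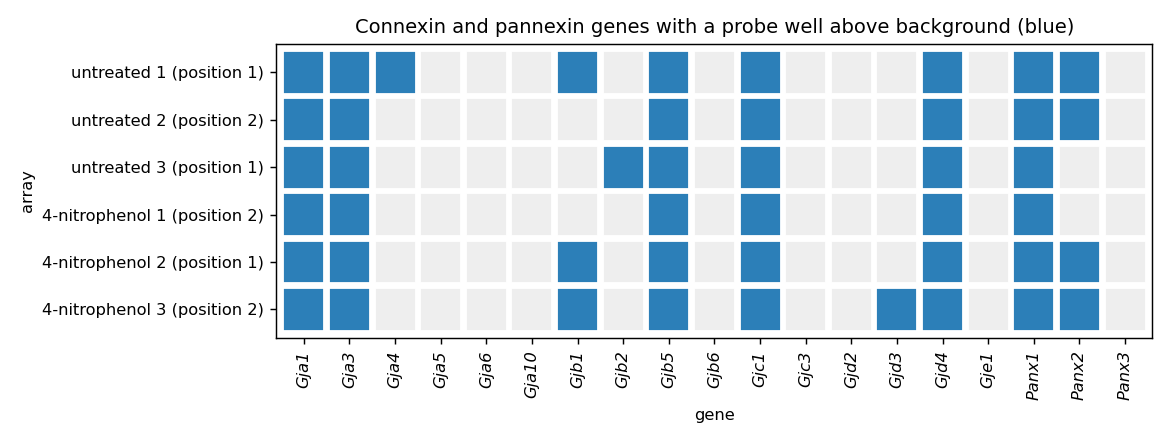
Detection of 19 connexin and pannexin genes, in columns, on the 6 arrays, in rows with their array position; a blue cell has at least 1 probe well above background. The columns of 6 genes are blue on every array, and Gja4 and Gjb2 have 1 blue cell each.

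Gja1, the main connexin of Sertoli cells, showed no difference between the groups that its 3 probes shared. Its brightest probe read 2.42, 1.72 and 2.14 in untreated replicates 1, 2 and 3, and 1.76, 2.37 and 2.19 in PNP replicates 1, 2 and 3. The lowest values were untreated 2 and PNP 1, both at position 2, and the groups overlapped over nearly their whole range. Group means were 2.09 ± 0.35 (SD, n = 3) and 2.11 ± 0.31. The fitted difference was 0.01 ± 0.26 (SE), with a 95% interval of -0.58 to 0.61 and an adjusted p of 0.993 (limma). This interval leaves room for a change of up to about that size in either direction.

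The second Gja1 probe read 0.15, -0.29 and 0.43 untreated and 0.24, 0.75 and 0.42 with PNP. Its group means were 0.10 ± 0.37 and 0.47 ± 0.26 (SD, n = 3), a difference of 0.37 ± 0.25 (SE; adjusted p = 0.659 in the limma fit over probes). For the third probe the values were -0.59, -0.99 and -0.66 untreated and -1.39, -0.65 and -1.06 with PNP. It had means of -0.75 ± 0.21 and -1.03 ± 0.37 and a difference of -0.28 ± 0.25 (SE; adjusted p = 0.719, limma over probes). The 3 probes thus gave treatment differences of either sign, each smaller than 2 standard errors.

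Between array positions the same 3 Gja1 probes gave nearly the same difference. In a model with treatment, position 2 minus position 1 was -0.48 ± 0.20 (SE) at the first probe, -0.50 ± 0.19 at the second and -0.47 ± 0.19 at the third (adjusted p = 0.229, 0.173 and 0.200, limma over probes). None passed the test. At the brightest probe the means were 2.31 ± 0.15 (SD, n = 3) at position 1 and 1.89 ± 0.26 at position 2. The positions overlapped between slides, since PNP 3 at position 2 exceeded untreated 3 at position 1. Within each slide position 2 read lower: 1.72 against 2.42 on slide 1, 1.76 against 2.14 on slide 2 and 2.19 against 2.37 on slide 3. On slide 2 the arrays also differed in group.

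Gjc1, a connexin of cardiac conduction tissue and smooth muscle, read 1.04, 0.32 and 0.87 in untreated replicates 1 to 3 and 0.00, 0.91 and 0.12 in PNP replicates 1 to 3. PNP 2 lay among the untreated arrays and untreated 2 among the treated ones, so the groups overlapped. The means were 0.74 ± 0.37 (SD, n = 3) and 0.34 ± 0.50, a difference of -0.40 ± 0.31 (SE; 95% interval -1.10 to 0.30; adjusted p = 0.683, limma). Sorted by position, the same values no longer overlapped: 0.87 to 1.04 at position 1 and 0.00 to 0.32 at position 2. Position means were 0.94 ± 0.09 and 0.15 ± 0.16 (SD, n = 3). The fitted position difference was -0.74 ± 0.18 (SE; 95% interval -1.16 to -0.32; adjusted p = 0.0786, limma), short of the threshold of 0.05. It passed in 1 of 9 alternatives, a robust variance trend (adjusted p = 0.0313, limma), and in 0 of 6 fits without 1 array. With no filter its adjusted p was 0.405 (limma).

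Gjb5, a connexin of skin and trophoblast, read 1.06, 0.08 and 0.56 untreated and -0.53, 0.38 and 0.07 with PNP. Untreated 1 was the highest and PNP 1 the lowest, and the groups overlapped. Their means were 0.57 ± 0.49 (SD, n = 3) and -0.03 ± 0.46, a difference of -0.59 ± 0.32 (SE; 95% interval -1.33 to 0.14; adjusted p = 0.574, limma). By position, 0.38 to 1.06 stood against -0.53 to 0.08, with no overlap. The fitted difference of position 2 from position 1 was -0.67 ± 0.25 (SE; 95% interval -1.25 to -0.10; adjusted p = 0.179, limma).

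Panx1, the widely expressed ATP release channel of the pannexins, read 0.53, -0.18 and 0.11 untreated and -0.54, 0.10 and -0.44 with PNP. Again untreated 2 and PNP 2 lay across the other group's range. The means were 0.15 ± 0.36 (SD, n = 3) and -0.30 ± 0.34, a difference of -0.45 ± 0.27 (SE; 95% interval -1.06 to 0.16; adjusted p = 0.607, limma). The 3 arrays at position 1 read 0.10 to 0.53 and those at position 2 read -0.54 to -0.18. The position difference was -0.55 ± 0.20 (SE; 95% interval -1.01 to -0.09; adjusted p = 0.174, limma).

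**Figure D2:**
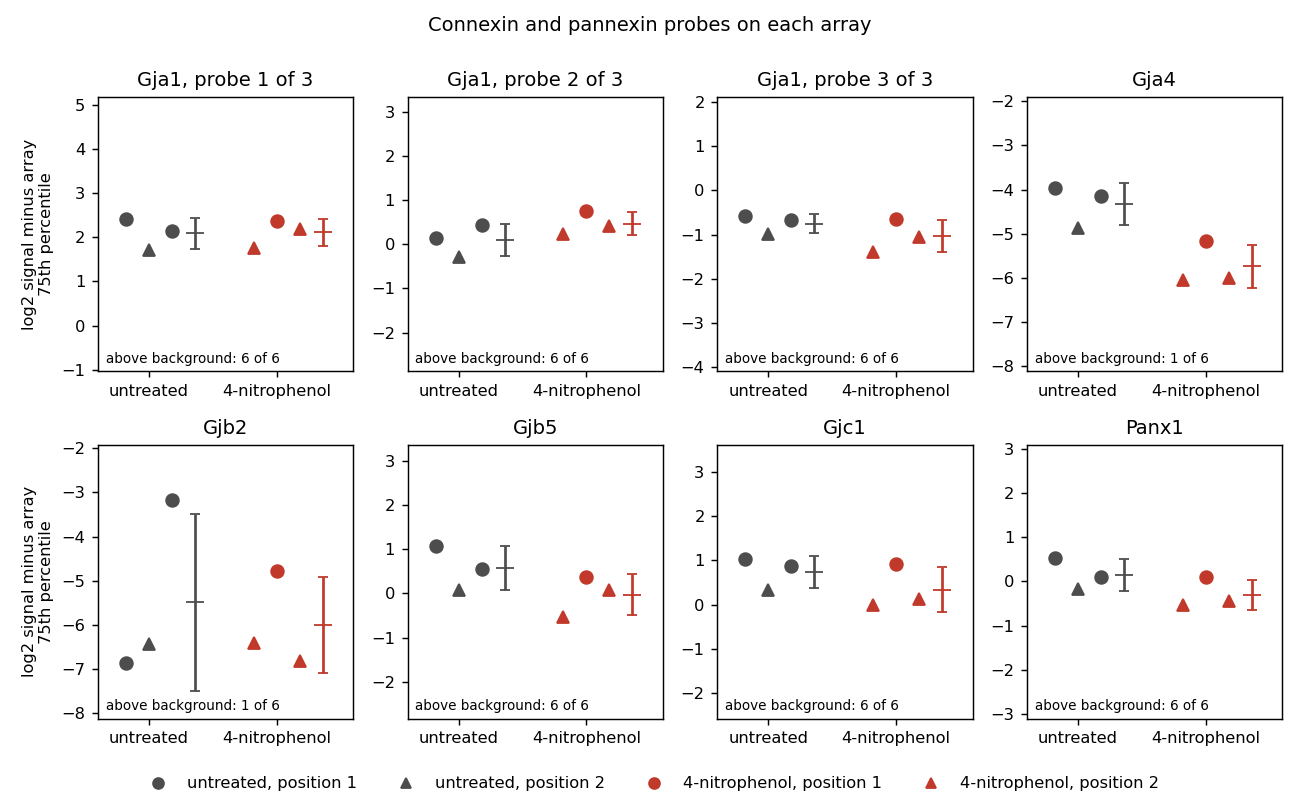
Log2 signal minus the array's 75th percentile (vertical axis, the same span in every panel) for the 8 member probes, by group; grey is untreated and red is 4-nitrophenol, circles are array position 1 and triangles position 2, and bars are the mean ± SD of 3 arrays. In the Gjb5, Gjc1 and Panx1 panels every circle lies above every triangle, while the groups overlap.

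For the 4 members that could be tested, the treatment comparison made no call. With PNP, 0 of 4 had an adjusted p under 0.05 (limma), as did 0% of all 21479 units, a unit being a named gene or an unnamed transcript. At an unadjusted p under 0.05 there were 0 of 4 members and 9.94% of all units, 2134 in number. These comprised 3.07% of units that were lower and 6.86% that were higher with PNP. None of the 4 had separate groups, against 7.83% of units that were separate and lower with PNP and 7.6% that were separate and higher. The smallest adjusted p of any unit was 0.107.

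Between positions, 0 of 4 members passed and 2.64% of all units did, 566 in number (limma, adjusted p under 0.05), with 1.52% of units passing as lower at position 2. At an unadjusted p under 0.05, Gjb5, Gjc1 and Panx1 were lower at position 2, which is 3 of 4 members. At that threshold 20.6% of units differed, 9.42% being lower and 11.1% higher at position 2. The positions did not overlap for the same 3 of 4 members, where 10.9% of units were separate and lower at position 2. With 4 members, these counts describe the genes and were not tested as a group.

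The position difference had the same sign in each group. Each value rests on a lone array: untreated 2 at position 2 for the untreated group, and PNP 2 at position 1 for the treated group. Within the untreated group, position 2 minus position 1 was -0.56 for Gja1, -0.74 for Gjb5, -0.63 for Gjc1 and -0.50 for Panx1. Within the treated group it was -0.40, -0.61, -0.85 and -0.59 in the same order. With position as a block, the treatment difference of Gjc1 went from -0.40 to -0.15 ± 0.18 (SE; adjusted p = 0.688, limma), and that of Panx1 from -0.45 to -0.27 ± 0.20 (adjusted p = 0.522, limma). Gjb5 went from -0.59 to -0.37 ± 0.25 (adjusted p = 0.487, limma) and Gja1 from 0.01 to 0.17 ± 0.21 (adjusted p = 0.691, limma). Within position 1, with 2 untreated arrays and 1 treated array, the differences were 0.09 for Gja1, -0.44 for Gjb5, -0.04 for Gjc1 and -0.22 for Panx1. Within position 2, with 1 untreated array and 2 treated arrays, they were 0.26, -0.31, -0.26 and -0.31. The test of a difference between these values gave an adjusted p of 1 for each gene (limma interaction).

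**Figure D3:**
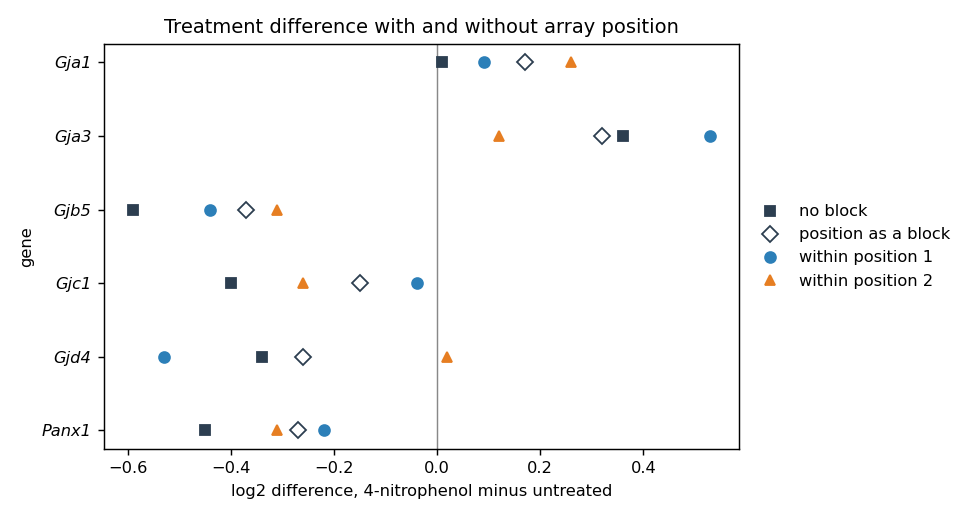
Log2 difference of 4-nitrophenol minus untreated (horizontal axis) for 6 connexin and pannexin genes detected on all arrays, from the fit without a block, with array position as a block, and within each position. For Gjb5, Gjc1 and Panx1 the open diamonds of the blocked fit lie nearer to 0 than the squares.

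Gja4, a connexin of endothelium and of the oocyte and its follicle cells, stood near background. It read -3.97, -4.86 and -4.15 untreated and -6.05, -5.17 and -6.00 with PNP, with untreated 1 alone well above background. Every untreated array read above every treated one, with means of -4.33 ± 0.47 and -5.74 ± 0.49 (SD, n = 3). Of the units past the filter on dim probes, 7.83% were separate in that direction. That share leaves out probes as dim as this one, for which none was counted. The other 5 arrays did not measure it, and the untreated mean itself lay below the mean of the lowest levels well above background on the untreated arrays, -4.20, so no fold is given. Gja4 did not pass the filter on dim probes. In a fit without that filter its treatment difference was -1.41 ± 0.36 (SE; adjusted p = 0.702, limma), a size that rests on signals not told from background.

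Gjb2, a connexin of the inner ear, liver and skin, read -6.86, -6.43 and -3.18 untreated and -6.41, -4.78 and -6.82 with PNP. A single array, untreated 3, read well above background, and the next highest was PNP 2, so the groups overlapped. The untreated mean of -5.49 ± 2.01 (SD, n = 3) lay below the same level of -4.20, and no fold is given. In the fit without the filter, the treatment difference was -0.52 ± 0.97 (SE; adjusted p = 0.851, limma). The 2 arrays on which Gja4 or Gjb2 was detected were both at position 1.

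Of the other family genes, Gja3 and Gjd4 were detected on all 6 arrays. Gja3, a lens connexin, read -2.61, -2.48 and -2.97 untreated and -2.76, -2.26 and -1.97 with PNP, a difference of 0.36 ± 0.26 (SE; adjusted p = 0.671, limma). Its groups overlapped, and a second Gja3 probe was above background on untreated 2 alone. Gjd4 read -2.57, -3.52 and -3.42 untreated and -3.46, -3.53 and -3.55 with PNP, with untreated 1 standing above the other 5 arrays. Its treatment difference was -0.34 ± 0.28 (SE; adjusted p = 0.699, limma). The position differences of Gja3 (0.10 ± 0.27, SE) and Gjd4 (-0.25 ± 0.28) did not pass (adjusted p = 0.874 and 0.671, limma).

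A further 3 family genes were seen on part of the arrays. Panx2, a pannexin known from brain, read -2.99, -3.85 and -4.49 untreated and -4.79, -4.49 and -3.84 with PNP, and was above background on 4 arrays, 2 of each group, with a second probe above it on none. Gjb1, a connexin of hepatocytes and myelinating Schwann cells, was detected on 3 arrays, untreated 1, PNP 2 and PNP 3, and Gjd3 on PNP 3 alone. The groups overlapped for Panx2 and Gjb1. Gjd3 read -6.64, -6.38 and -5.97 untreated and -5.64, -4.92 and -4.41 with PNP, so its groups did not overlap. Of the units past the filter on dim probes, which Gjd3 did not pass, 7.6% were separate in that direction. Only its highest treated array was measured, and no fold is given.

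**Figure D4:**
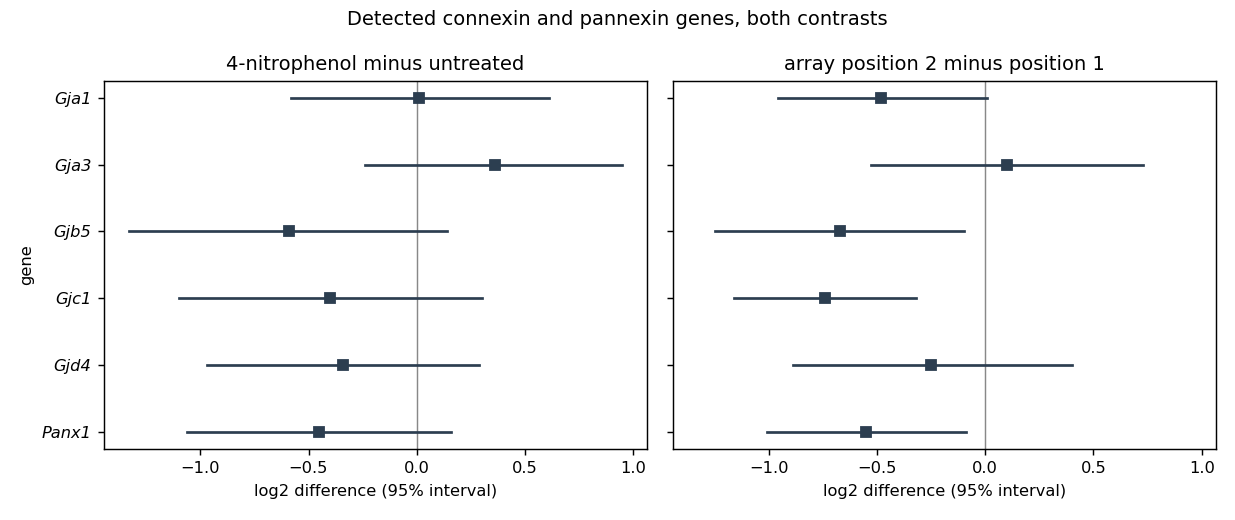
Log2 differences with 95% intervals from limma for 6 family genes detected on all arrays: 4-nitrophenol minus untreated on the left, array position 2 minus position 1, fitted with treatment, on the right. Every treatment interval crosses 0, and the position intervals of Gjb5, Gjc1 and Panx1 lie below 0.

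The 5 tested connexins described here (Gja1, Gja3, Gjb5, Gjc1 and Gjd4) gave 0 calls for treatment, also at an unadjusted p under 0.05, and had a median treatment difference of -0.34, with 3 of 5 below 0. Over all 19359 units detected on all 6 arrays the median was -0.06, and over the 12768 named genes among them it was -0.10. For position, Gjb5 and Gjc1 were lower at an unadjusted p under 0.05 and 0 of 5 passed after adjustment, with a median of -0.48 against 0.05 over the 19359 units. The 1 tested pannexin, Panx1, had -0.45 and -0.55 for these contrasts.

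Genes that work beside these channels were read as 3 further lists. Of 9 other large-pore ATP and anion channel genes, 8 were tested, with 0 at an unadjusted p under 0.05 for treatment in either direction. Over the 7 detected on all arrays, all below 0 for treatment, the median was -0.17, and for position it was -0.35. The 3 with the smallest treatment p were Calhm1, an ATP release channel of taste cells, at 0.52 ± 0.23 (SE; adjusted p = 0.513, limma), and the volume-regulated anion channel subunits Lrrc8e at -0.50 ± 0.24 (0.535) and Lrrc8a at -0.36 ± 0.23 (0.632). The groups did not overlap for Lrrc8e, 1 of the 8 tested, where 7.83% of all units were separate and lower.

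Of 22 purinergic receptors and ectonucleotidases, which sense and degrade released ATP, 14 were detected on at least 1 array and 10 were tested. None had an unadjusted p under 0.05 for treatment, and the median over the 9 detected throughout was 0.02, with 4 below 0. P2rx7, an ATP-gated channel, had 0.48 ± 0.23 (SE; adjusted p = 0.535, limma) with groups that did not overlap, as for 7.6% of all units in that direction, and was the 1 such gene of 10. P2rx5, of the same family, had -0.60 ± 0.29 (0.536), and Entpd2, an ATP-hydrolysing ectoenzyme, had 0.34 ± 0.28 (0.702). P2rx5 was the 1 of the 10 with an unadjusted p under 0.05 for position, at -0.65 (adjusted p = 0.122, limma), which passed with normexp (0.0474).

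All 16 detected genes of 17 for connexin scaffolds, trafficking and turnover were tested. At an unadjusted p under 0.05, 1 was lower with PNP and 0 were higher, and the median was -0.19 with 13 of 16 below 0. That gene was Mapk7, a kinase that phosphorylates the Gja1 protein, at -0.49 ± 0.21 (SE; adjusted p = 0.488, limma). Ezr, a linker of membrane proteins to actin, had -0.41 ± 0.20 (0.539), and Src, a tyrosine kinase that acts on the same connexin, -0.46 ± 0.24 (0.557). The groups did not overlap for any of these 3 genes, which were taken for their small p, and none passed. Over the whole list, 5 of 16 tested genes were separate and lower with PNP and 0 separate and higher, where 7.83% and 7.6% of all units were. For position the median of this list was -0.10, with 1 gene higher and 0 lower at an unadjusted p under 0.05.

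The detected members followed similar patterns across the arrays. Over the 6 arrays, Pearson's r was 0.957 between Gjc1 and Panx1, 0.952 between Gjb5 and Panx1 and 0.904 between Gjb5 and Gjc1. Gja1 was less like the others, with r of 0.777 to Gjb5, 0.75 to Gjc1 and 0.698 to Panx1. The arrays share 2 positions and 3 slides, so these values are descriptions. Of 12764 other named genes detected on all arrays, those most like Gja1 were Zc3h4 (r = 0.993) and Stk26 (0.992), and those most like Gjb5 were Kcnn4 (0.998) and Nat10 (0.997). Gjc1 was most like Zfp446 (0.999) and Ap5b1 (0.997), and Panx1 most like Tarbp1 and Ebna1bp2 (both 0.999). With 6 arrays and this many genes, such r values are the highest of a large number.

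Markers of epithelium and keratinocytes, where Gjb5 is best known, included a gene that passed for position. This was not particular to them: of 4 tested macrophage markers 1 passed, Cd68, which was higher at position 2 (1.16 ± 0.20, SE, adjusted p = 0.0365, limma). Of 10 epithelial and keratinocyte markers, 8 were detected on at least 1 array and 7 were tested. Epcam and Cdh1, which define epithelium, were detected on no array. The keratin gene Krt8 was lower at position 2 by a fitted -1.13 ± 0.18 (SE; adjusted p = 0.0308, limma), 1 of 7 tested markers to pass, where 2.64% of all units did. The call was lost with normexp (-0.59, adjusted p = 0.0578, limma), with no filter (0.249) and without untreated 1, untreated 2, untreated 3, PNP 2 or PNP 3 (0.107, 0.344, 0.0649, 0.31 and 0.0695). Krt19 had -0.75 ± 0.19 (0.0858) and Krt14 -0.69 ± 0.25 (0.18), and these 3 of 7 were the markers with an unadjusted p under 0.05, where 20.6% of all units were below it. Over the 6 detected throughout, the median was -0.57 for position and -0.59 for treatment, with 6 of 6 below 0 for treatment. The summed linear signal of all 10 markers, detected or not, is in multiples of the array's 75th percentile. It ran from 46.2 to 52.2 at position 1 and from 52.2 to 64.4 at position 2. This sum is in effect the Trp63 signal, with log2 means of 5.75 untreated and 5.63 with PNP. Every other tested marker had means below the array's 75th percentile, so the sum does not describe the keratins. Trp63 had a position difference of 0.28 ± 0.17 (SE). By group the sum ran from 51.0 to 64.4 untreated and from 46.2 to 54.1 with PNP. Of 10 endothelial markers, relevant to Gja4, Cdh5, Kdr, Tek, Emcn and Esam were detected on no array, and the summed signal was 1.36 to 1.44 untreated and 1.28 to 1.61 with PNP. The 7 peritubular myoid and smooth muscle markers, relevant to Gjc1, were all detected on all 6 arrays, with sums of 97.4 to 150 untreated and 98.4 to 140 with PNP. Tagln made up most of these sums, with log2 means of 6.52 untreated and 6.44 with PNP, while Myh11 had -3.46 and -3.15. The Sertoli cell markers had sums of 11.51 to 14.31 untreated and 10.4 to 11.0 with PNP, which did not overlap. How often sums of other gene sets were separate was not computed. Of the 12 tested, 3 were separate and lower with PNP, where 7.83% of all units were, and none passed after adjustment. Sox9 had -0.81 ± 0.23 (SE, adjusted p = 0.303, limma) at its brightest probe and -0.04 at its other probe. Gata4 likewise had -0.48 at its brightest probe and 0.04 at its other probe, while the probes of Rhox5 had -0.44 and -0.46. The part of any of these cell markers in the connexin values was not tested.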

How the data were processed

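Per the labels' protocols, total RNA of 6 TM4 samples was extracted with TRIzol, amplified and Cy3-labelled. The deposited intensity values come from Agilent Feature Extraction (11.5.1.1 per the file headers, 10.7 per the submitters' processing notes), as a processed signal without background and the median spot and background signals. The authors' log2 matrix has a median of 4.74 in every column and follows the log2 processed signals (r of 0.9981 or more); its normalization is read from the values. No column was left unmapped.

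Log2 processed signals were averaged over a probe's spots, then scaled by subtracting the 75th percentile of the array. The filter kept 28208 probes that were well above background throughout 1 group or both (3 arrays each), and the brightest probe stood for its gene. Accessions were matched to RefSeq symbols of GRCm38.p6, used for names and gene order (33767 probes named, 22838 not), since the file headers name another build. The 21479 units, 13538 of them named, were compared in limma 3.58.1 (R 4.3.3, with the packages statmod 1.5.0 and data.table, version 1.17.8), two-sided, with Benjamini-Hochberg adjustment over all units. Position was tested in a model with treatment. The fit was tested on simulated data. Named genes were the members and the other family genes detected on at least 1 array. Also named were the 3 smallest treatment p of each pathway list and the 2 most correlated genes per member. Keratins, Sox9, Gata4, Rhox5, Trp63, Cd68, Tagln and Myh11 were named after their values were seen. Some items are not reported here. Members and lists were chosen with earlier results of these data known. The number of arrays limits the precision. Same-numbered replicates did not deviate together (r from -0.553 to -0.406). Alternatives covered background correction, scaling, filters, blocks, weights, probe choice, the authors' values and left-out arrays.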

Additional observations from a re-analysis of the deposited data

How the results depend on the processing

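No detected member was called for treatment under any of 17 alternatives or without any 1 array, where Gjb5 ran from -1.09 to -0.27, Gjc1 from -0.87 to -0.04 and Panx1 from -0.78 to -0.22. Gja1 changed sign, to -0.09 with median centring, -0.38 with slide as a fixed block (which rests on 1 slide), -0.27 with array weights and between -0.17 and 0.19 without 1 array. For treatment, 0 units were called, also with the replicate block, which paired no samples, and without any 1 array, except 93 with normexp and position as a block, 538 within position 1, 78 within position 2 (a lone array is assumed there to vary like the others) and 1365 with array weights, where untreated 1 weighed 9.11 and the others 0.466 to 0.798. Treatment signs also turned for Gjd4 (0.02 within position 2), Calhm1 (-0.02 with normexp and position as a block) and Entpd2 (-0.22 with slide fixed). With normexp alone, differences that were higher with PNP shrank for Gja3 (0.36 to 0.10), Calhm1 (0.52 to 0.07), P2rx7 (0.48 to 0.18) and Entpd2 (0.34 to 0). P2rx5, lower with PNP, went from -0.60 to -0.34. The 566 units called for position became 1173 with normexp, 0 without a filter, 900 with a filter on all 6 arrays and 1392 with a robust trend. Without 1 array they ran from 0 to 1069: 0 without any untreated array or PNP 2, 50 without PNP 3 and 1069 without PNP 1. For position the detected members kept their sign throughout. Signs turned with normexp for Gjd4 (0.07) and Entpd2 (0.01), and without 1 array for Gja3 (-0.10 to 0.31), Gjd4 (-0.52 to 0.03), Calhm1 (-0.12 to 0.47), P2rx7 (-0.44 to 0.36) and Mapk7 (-0.13 to 0.36). The causes were not tested. Gja4 and Gjb2 lay too near background for more than detection.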
